A study of Mus musculus with 6 samples.

Results

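The genes described here are 8 members of the T-bet, Eomes and Th1 programme, chosen by symbol as the master factors of type 1 helper T cells (Tbx21, which encodes T-bet, and Eomes), their signature cytokine (Ifng), and the receptors and signal transducer for interleukin-12 and interleukin-18 (Il12rb1, Il12rb2, Il18r1, Il18rap and Stat4). All 8 were found among the 24424 genes of a table of read counts and among the 23393 genes of a separate table of normalized values. RNA had been sequenced from regulatory T cells (Tregs), a Foxp3-positive T cell lineage that holds back immune responses, sorted from mouse spleen and peripheral lymph nodes. The count table held 3 groups of 2 libraries: KO at steady state, KO with EAE (experimental autoimmune encephalomyelitis, an induced inflammation of the central nervous system), and WT at steady state. The normalized table held 2 KO and 2 WT libraries at steady state. The strain label of both KO groups was Bcl11bF/WT Foxp3YFP-Cre +/-, that is 1 floxed and 1 wild-type allele of Bcl11b with a Cre recombinase driven from the Foxp3 gene, although their genotype labels read KO and KO_EAE. The WT strain label was Bcl11bF/F with no Cre named. Cre driven from Foxp3 acts in cells that express, or have expressed, Foxp3. No age, sex or number of pooled animals is given, and no WT group with EAE was analysed here. The labels do not say whether replicates came from different animals, and the p-values therefore measure the spread between these libraries, which may be technical.

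In the standard account of type 1 helper cells, interleukin-12 from antigen-presenting cells binds a receptor made of a constant chain (Il12rb1) and an inducible chain (Il12rb2), and the receptor activates STAT4. T-bet, induced by interferon-gamma and receptor signals, opens the Ifng locus and keeps Il12rb2 expressed. Interleukin-18 acts through a binding chain (Il18r1) and an accessory chain (Il18rap) and adds to interleukin-12 in inducing interferon-gamma. Eomes is the close relative of T-bet that serves in natural killer (NK) cells and memory CD8 T cells. Regulatory T cells that control type 1 responses are known to express T-bet together with Foxp3.

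Libraries of the count table held 14663542 to 16904312 reads in genes, a depth at which a floor of 3 reads lies at 0.178 to 0.205 CPM (counts relative to library size). This floor is without TMM scaling, while the levels in CPM below include it (factors 0.969 to 1.044). Reads recovered from the normalized table came to 16884434 to 25335011 per library. T cell genes marked every library: Foxp3 had 164 and 155 CPM in KO, 163 and 149 CPM in KO EAE, and 210 and 206 CPM in WT. Bcl11b itself, read over the whole gene and so not over the floxed part alone, had 371 and 369 CPM in KO, 404 and 278 CPM in KO EAE, and 419 and 424 CPM in WT. Its log2 change in KO over WT was -0.19 ± 0.17 (approximate SE; edgeR, adjusted p = 0.527), and in the normalized table -0.88 ± 0.14 (limma, adjusted p = 0.0650), so a lower level was called in neither table. KO below stands for libraries labelled KO. In bulk RNA, more cells of a type and more RNA per cell cannot be told apart.

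At steady state 5 of the 8 genes rose in KO over WT in the count table, and they were Tbx21, Eomes, Ifng, Il12rb2 and Il18rap. Over all 14548 genes tested, 12.9% were called in either direction and 9.41% higher. No member was called lower by edgeR (0 at an unadjusted p under 0.05 and 0 by DESeq2), where 3.46% of all genes were. The members had a median log2 change of 1.16, against -0.01 for all genes tested. Both KO libraries lay above both WT libraries for 7 members and below them for Il12rb1, while 32.7% and 32.5% of all genes tested were separated in those directions. The remaining chains and the transducer, Il12rb1, Il18r1 and Stat4, were not called.

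**Figure D1:**
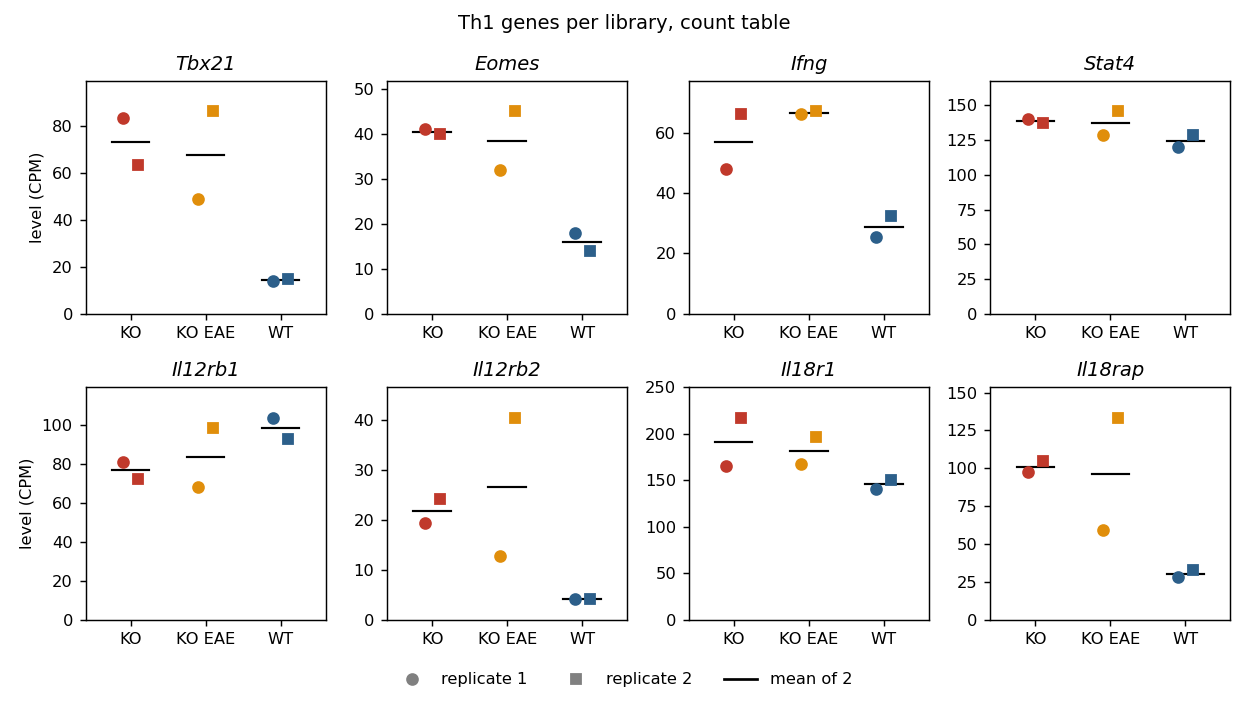
Level of each of the 8 genes in CPM (linear axes from 0) in the 6 libraries of the count table; circles and squares are replicates 1 and 2 and black lines are means of 2 libraries. Tbx21 stood at 63.2 to 83.3 CPM in KO and 14.1 to 14.9 CPM in WT, and the 2 KO EAE libraries lay apart for Tbx21, Il12rb2 and Il18rap.

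Tbx21 (chromosome 11, 97098071 to 97115331, minus strand, mm10) had 83.3 and 63.2 CPM in KO replicates 1 and 2, 49.1 and 86.3 CPM in KO EAE replicates 1 and 2, and 14.1 and 14.9 CPM in WT replicates 1 and 2. All 4 libraries labelled KO or KO EAE were higher than both WT libraries. The log2 change was 2.34 ± 0.29 in KO over WT, a 5.07-fold difference (edgeR quasi-likelihood, Benjamini-Hochberg adjusted p = 0.00381; higher in 2 of 2 KO libraries). It was the only member whose call held with any 1 of the 4 libraries left out (adjusted p 0.0248 to 0.0346). Behind these levels stood 1470 and 928 reads in KO and 225 and 243 reads in WT.

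Eomes (chromosome 9, 118478212 to 118486132) had 41.1 and 40.1 CPM in KO, 32.1 and 45.1 CPM in KO EAE, and 18.1 and 14.0 CPM in WT. The KO libraries were within a ratio of 1.02 of each other, and both lay above both WT libraries. The log2 change in KO over WT was 1.34 ± 0.21 (adjusted p = 0.00961), a 2.53-fold difference. The call was lost without KO replicate 1, KO replicate 2 or WT replicate 2 (adjusted p = 0.0718, 0.0708 and 0.0586) and held without WT replicate 1 (0.0306), with log2 changes of 1.17 to 1.55 in these 4 fits. Per exon length, the level of Tbx21 was 3.39 and 2.63 times that of Eomes in KO, 2.56 and 3.20 times in KO EAE, and 1.30 and 1.77 times in WT. The normalized table gave the other direction, with ratios of 5.55 and 4.94 in KO and 10.7 and 6.26 in WT. In the annotation an antisense gene shares 118 exon bases with Eomes, and genes of the same strand share 336 with Ifng and 1033 with Stat4. The annotation and strand setting used for counting were not given, so how reads from these stretches were assigned is not known.

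Ifng (chromosome 10, 118441046 to 118445892), which encodes interferon-gamma, had 47.9 and 66.2 CPM in KO, 66.3 and 67.1 CPM in KO EAE, and 25.6 and 32.3 CPM in WT. Every KO and KO EAE library lay above both WT libraries, and the KO EAE libraries above both KO libraries, although KO EAE replicate 1 and KO replicate 2 were nearly equal. In KO over WT the log2 change was 0.98 ± 0.18 (adjusted p = 0.0192), 1.97-fold. Without KO replicate 2 or WT replicate 1 the call was lost (adjusted p = 0.0895 and 0.102), and without KO replicate 1 or WT replicate 2 it held (0.0233 and 0.0398).

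RefSeq promoter windows (GRCm38.p6, 250 bases before to 50 after the annotated start) were available for 7 members in 10 windows, with none for Il12rb1. They were read for 2 letter patterns tied to the factors named here. The palindrome TTCNNNGAA, a STAT-type pattern, occurred in windows of 3 members (Ifng, Il12rb2 and 1 of 3 windows of Il18r1) and in 8.30% of all 32851 windows. The T-box half-site AGGTGTGA, read on both strands, occurred in the windows of 0 members and in 1.28% of all windows. A match describes the letters alone. The windows of Ifng and Il12rb2 are shown because both genes rose in the count table and hold the palindrome, in capitals. That of Tbx21 is shown because its window holds neither pattern and its count-table call in KO over WT held with any 1 library left out. Tbx21 was not called in the normalized table. The palindrome begins 249 bases before the start in Ifng and 123 bases before it in Il12rb2. The windows lie at chr10:118440796-118441095 (plus strand), chr6:67376139-67376438 (minus strand) and chr11:97115282-97115581 (minus strand), each written 5′ to 3′ on the strand of its gene.
Ifng: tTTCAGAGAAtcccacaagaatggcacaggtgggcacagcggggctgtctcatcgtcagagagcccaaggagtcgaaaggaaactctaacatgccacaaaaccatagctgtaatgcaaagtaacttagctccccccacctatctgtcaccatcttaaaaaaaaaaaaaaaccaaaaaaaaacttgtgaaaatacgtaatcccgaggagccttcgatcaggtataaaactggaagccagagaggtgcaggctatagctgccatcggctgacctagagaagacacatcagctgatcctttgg
Il12rb2: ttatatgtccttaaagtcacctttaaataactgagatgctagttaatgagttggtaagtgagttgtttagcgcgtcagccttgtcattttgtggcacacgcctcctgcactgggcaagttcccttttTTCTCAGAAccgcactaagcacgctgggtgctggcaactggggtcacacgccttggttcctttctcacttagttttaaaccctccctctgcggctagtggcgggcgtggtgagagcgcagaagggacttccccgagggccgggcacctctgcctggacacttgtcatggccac
Tbx21: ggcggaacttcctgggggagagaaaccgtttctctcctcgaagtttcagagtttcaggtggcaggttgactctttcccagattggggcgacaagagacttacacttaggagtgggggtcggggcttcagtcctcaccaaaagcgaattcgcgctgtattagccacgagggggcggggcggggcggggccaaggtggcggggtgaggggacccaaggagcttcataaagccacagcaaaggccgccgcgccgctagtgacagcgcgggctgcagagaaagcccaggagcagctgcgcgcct

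Of the interleukin-12 receptor genes, Il12rb2 was called and Il12rb1 was not, and the difference between them was not tested. Il12rb2 (chromosome 6, 67291318 to 67376188, minus strand), the inducible signalling chain, had 19.3 and 24.1 CPM in KO, 12.8 and 40.4 CPM in KO EAE, and 4.12 and 4.10 CPM in WT. No KO or KO EAE library overlapped the WT libraries, and the 2 KO EAE libraries differed 3.15-fold from each other. The log2 change in KO over WT was 2.39 ± 0.53 (adjusted p = 0.0360), the largest of the 8 members and with the largest error, and it was not called without any 1 of the 4 libraries (log2 change 2.23 to 2.55, adjusted p 0.133 to 0.171). In a fit of the KO and WT libraries alone, Il12rb2 was called at a log2 change of 2.41 (edgeR, adjusted p = 0.00112). Il12rb2 shares 1519 exon bases with Serbp1 on the opposite strand, an RNA-binding protein gene. Serbp1 stood at 244 and 287 CPM in KO and 262 and 269 CPM in WT (log2 change -0.0013 ± 0.10, adjusted p = 0.995).

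Il12rb1 (chromosome 8, 70808449 to 70821424), the chain that receptors for interleukin-12 and interleukin-23 have in common, had 81.4 and 72.6 CPM in KO, 68.4 and 99.0 CPM in KO EAE, and 104 and 93.1 CPM in WT. It was the one member with both KO libraries below both WT libraries, and its log2 change of -0.36 ± 0.18 was not called (adjusted p = 0.251). Per exon length, the level of Il12rb2 was 0.256 and 0.359 of that of Il12rb1 in KO, 0.203 and 0.442 in KO EAE, and 0.0429 and 0.0476 in WT. Within this pair the inducible chain made up more of the reads in all 4 KO and KO EAE libraries than in both WT libraries. In the normalized table the ratio was 0.246 and 0.2685 in KO and 0.0365 and 0.0866 in WT, the same direction. Stat4 (chromosome 1, 51987148 to 52107189), which the receptor activates, had 140 and 137 CPM in KO, 129 and 146 CPM in KO EAE, and 120 and 129 CPM in WT. Its log2 change in KO over WT was 0.16 ± 0.09 (adjusted p = 0.291).

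Of the interleukin-18 receptor genes, Il18rap was called and Il18r1 was not, and the difference between them was not tested. Il18rap (chromosome 1, 40515362 to 40551705), the accessory chain that completes the signalling receptor, had 97.4 and 105 CPM in KO, 59.2 and 134 CPM in KO EAE, and 28.2 and 32.7 CPM in WT. The KO and KO EAE libraries all lay above WT, and KO EAE replicate 1 was the lowest of them. The log2 change in KO over WT was 1.73 ± 0.36 (adjusted p = 0.0274), a 3.32-fold difference, and the call was lost without any 1 of the 4 libraries (log2 change 1.64 to 1.84, adjusted p 0.106 to 0.152). In a fit of the KO and WT libraries alone, Il18rap was called at a log2 change of 1.74 (edgeR, adjusted p = 0.00031). Il18r1 (chromosome 1, 40465552 to 40500854), the ligand-binding chain, had 165 and 217 CPM in KO, 168 and 196 CPM in KO EAE, and 140 and 151 CPM in WT. Its log2 change was 0.39 ± 0.15 (unadjusted p = 0.0370, adjusted p = 0.146, edgeR), so both KO libraries were higher without a call. Per exon length, the level of Il18rap was 0.421 and 0.344 of that of Il18r1 in KO, 0.252 and 0.486 in KO EAE, and 0.143 and 0.155 in WT. In the normalized table this ratio overlapped between the groups, at 0.488 and 0.272 in KO and 0.134 and 0.369 in WT.

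The 2 genes lie 14508 bases apart on the same strand, in a cluster of interleukin-1 receptor relatives, whose other members were chosen here by position. Il1rl1, which encodes the interleukin-33 receptor ST2 and ends 137 bases before Il18r1 begins, had 23.4 and 33.1 CPM in KO and 28.4 and 37.0 CPM in WT (log2 change -0.21 ± 0.21, adjusted p = 0.569). Il1rl2, the interleukin-36 receptor gene, had 10.5 and 8.93 CPM in KO and 2.19 and 2.39 CPM in WT, and rose by 2.08 ± 0.24 on the log2 scale (adjusted p = 0.00310). Il1r1, the signalling receptor for interleukin-1, had a log2 change of 1.72 ± 0.51 (adjusted p = 0.0848) and Il1r2, its decoy, one of 0.02 ± 0.26 (adjusted p = 0.979). Neighbouring genes of the cluster thus included called and uncalled members.

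Compared per exon length within a group of the count table, the order of the 8 genes differed between KO and WT. In WT, Stat4 at 31.0 to 33.2 and Il18r1 at 29.2 to 31.3 CPM per kb led and overlapped each other. Il12rb1 at 22.7 to 25.4 and Ifng at 19.7 to 24.9 CPM per kb followed and also overlapped. Tbx21 at 5.65 to 5.97, Il18rap at 4.18 to 4.85, Eomes at 3.37 to 4.35 and Il12rb2 at 1.08 to 1.09 CPM per kb came last in WT, with Il18rap and Eomes overlapping. In KO, Ifng at 37.0 to 51.1 CPM per kb stood first, overlapping Il18r1 at 34.2 to 45.1, which overlapped Stat4 at 35.4 to 36.2. Tbx21 at 25.4 to 33.5 CPM per kb then lay above Il12rb1 at 17.7 to 19.8, where in WT it lay below. Il18rap, Eomes and Il12rb2 kept the 3 last places in KO without overlap, at 14.4 to 15.5, 9.66 to 9.89 and 5.08 to 6.34 CPM per kb. In KO EAE, Ifng led at 51.2 to 51.8 CPM per kb without overlap, and each later gene overlapped the next. The length of Il12rb2 includes the 1519 exon bases shared with Serbp1, and their effect on these levels was not tested. Reads recovered from the normalized table gave another order. There, Stat4 in KO at 63.6 to 72.2 CPM per kb lay above Ifng at 23.1 to 28.5, and Il18r1 stood at 6.37 to 8.27. Tbx21 in WT at 11.9 to 18.2 CPM per kb overlapped Il12rb1 at 10.45 to 14.5.

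**Figure D2:**
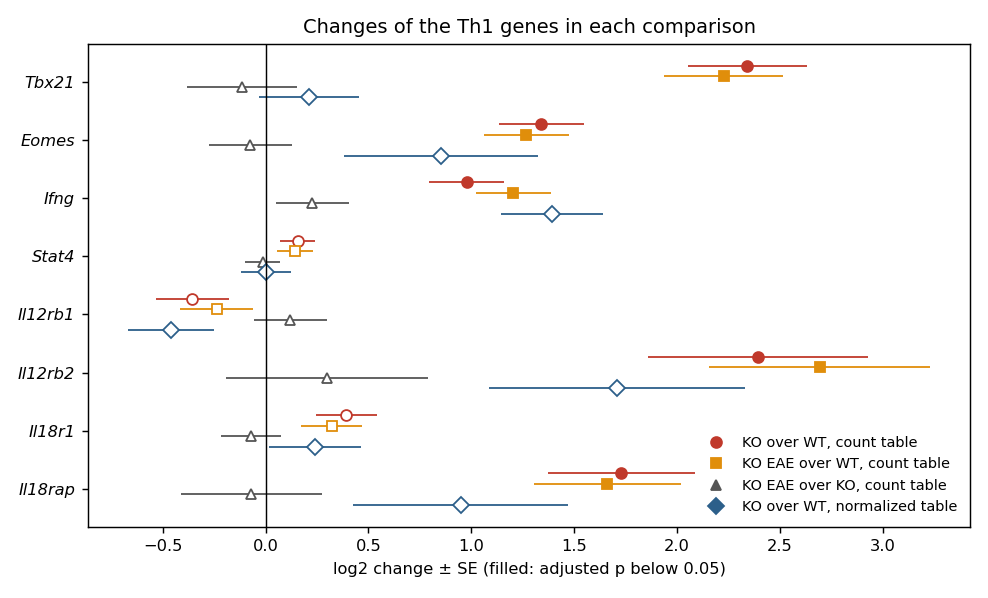
Log2 change with its SE (horizontal axis) for each gene in 4 comparisons; filled symbols have an adjusted p below 0.05. The 5 genes called in KO over WT are those called in KO EAE over WT, comparisons that share the WT libraries, while no symbol is filled for KO EAE over KO or for the normalized table.

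In KO cells with EAE against KO cells at steady state, no member was called by edgeR (0 at an unadjusted p under 0.05 and 0 by DESeq2), against 0.0137% of all genes tested. The 2 genes called in that comparison were Nr4a3 and Dusp4, which were looked up after the values were seen. Changes of the members ran from -0.11 ± 0.27 for Tbx21 to 0.30 ± 0.49 for Il12rb2 on the log2 scale (adjusted p = 0.892 and 0.841), and Ifng had 0.23 ± 0.18 (adjusted p = 0.669). Both KO EAE libraries lay above both KO libraries for Ifng, as did 17% of all genes tested (21.3% lay below), and the groups overlapped for the other 7 members. The spread within KO EAE was wide: KO EAE replicate 2 was 1.76-fold replicate 1 for Tbx21, 1.41-fold for Eomes, 2.26-fold for Il18rap and 1.01-fold for Ifng.

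Against WT, the KO EAE libraries gave 5 members called higher and 0 lower (0 lower at an unadjusted p under 0.05 and by DESeq2), where 9.36% of all genes tested were called in either direction, 7.41% higher and 1.95% lower. All KO EAE libraries lay above WT for 7 members and overlapped WT for Il12rb1, while 29.9% of all genes tested were separated upward and 30.7% downward. These were again Tbx21 at 2.23 ± 0.29 on the log2 scale (adjusted p = 0.00592), Eomes at 1.27 ± 0.21 (0.0149), Ifng at 1.21 ± 0.18 (0.0112), Il12rb2 at 2.69 ± 0.54 (0.0314) and Il18rap at 1.66 ± 0.36 (0.0400). The WT libraries are the same as in the steady-state comparison, so the 2 sets of changes are not independent. In a fit of the 4 KO EAE and WT libraries alone, 2 members were called, since Eomes, Il12rb2 and Il18rap had adjusted p = 0.0692, 0.101 and 0.122. Leaving out WT replicate 1 ended the calls of Ifng, Il12rb2 and Il18rap (adjusted p = 0.0617, 0.162 and 0.201), and leaving out WT replicate 2 those of Eomes, Il12rb2 and Il18rap (0.0857, 0.147 and 0.139). Without KO EAE replicate 2 the log2 changes of Il12rb2 and Il18rap were 1.64 and 0.96, and without KO EAE replicate 1 they were 3.29 and 2.12, all called. Myeloid markers summed to 2083 and 2421 CPM in KO EAE and 361 and 399 CPM in WT, with 18 of 22 called higher, and their part in these changes was not tested. Genotype and EAE differ together in this comparison and cannot be told apart.

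The normalized table, whose values differ from those of the count table under the same library names, gave another picture for T-bet. Tbx21 had 989 and 808 in KO replicates 1 and 2 and 628 and 949 in WT replicates 1 and 2, in units of normalized signal. The groups overlapped, and the log2 change in KO over WT was 0.21 ± 0.24 on the log2(signal + 1) scale (limma, adjusted p = 0.748). Without WT replicate 1 it was -0.09, and without WT replicate 2 it was 0.51. The authors' deposited table lists Tbx21 at a log2 change of 0.13 with an adjusted p of 0.860. Its mean signals of the members match those of the normalized values, so it is another test of the same 4 libraries. Its log2 changes come from the authors' own method, and their sizes are not on a scale known to match limma.

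Ifng had the smallest p of the members in the normalized table, at 775 and 627 in KO and 267 and 263 in WT (normalized signal). Its log2 change was 1.39 ± 0.25 (limma, unadjusted p = 0.000526, adjusted p = 0.0949), with both KO libraries higher, and the 4 fits that left out 1 library each gave 1.24 to 1.54. The authors' deposited table lists Ifng at 0.92 with an adjusted p of 0.000982, the one member with an adjusted p under 0.05 there. By limma 0 of the 8 members were called in this table (2 at an unadjusted p under 0.05, Ifng and Il12rb2, and 0 by edgeR on the reads recovered from it), where 0.181% of all genes tested were called in either direction, 0.14% higher and 0.0412% lower.

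For Eomes, Il12rb2 and Il18rap the WT libraries of the normalized table lay apart from each other. Eomes had 298 and 273 in KO and 98.0 and 253 in WT, Il12rb2 had 171 and 197 in KO and 30.6 and 100.2 in WT, and Il18rap had 441 and 318 in KO and 108 and 345 in WT (normalized signal). WT replicate 1 was below WT replicate 2 for these 3 genes by 2.58-fold, 3.28-fold and 3.19-fold. Their log2 changes were 0.85 ± 0.47 for Eomes, 1.71 ± 0.62 for Il12rb2 and 0.95 ± 0.52 for Il18rap (limma, adjusted p = 0.472, 0.324 and 0.470), and without WT replicate 1 they were 0.17, 0.87 and 0.12. Without WT replicate 2 they were 1.53, 2.55 and 1.78, still not called (adjusted p = 0.154, 0.114 and 0.131). The markers of myeloid cells summed to 10650 in WT replicate 1 and 18650 in WT replicate 2 of this table, and their part in these values was not tested. Stat4 had 5168 and 5847 in KO and 5833 and 5174 in WT (log2 change 0.0009 ± 0.12), Il18r1 had 644 and 833 in KO and 577 and 667 in WT (0.24 ± 0.22), and Il12rb1 had 753 and 796 in KO and 906 and 1252 in WT (-0.46 ± 0.21; limma, adjusted p = 0.998, 0.671 and 0.402). Both KO libraries lay above both WT libraries for Eomes, Ifng and Il12rb2 and below them for Il12rb1, where 23.3% and 22.4% of all genes tested were so separated.

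**Figure D3:**
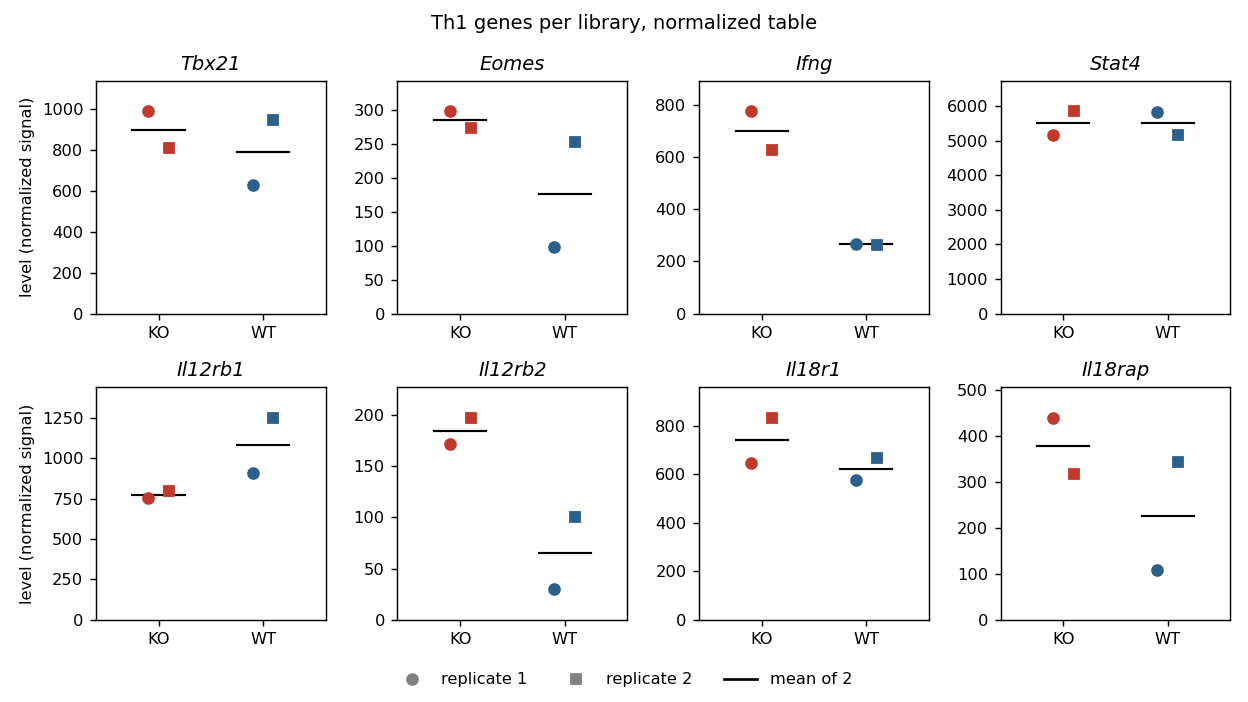
Level of each of the 8 genes as normalized signal (linear axes from 0) in the 4 libraries of the normalized table; circles and squares are replicates 1 and 2 and black lines are means of 2 libraries. Ifng separated KO at 627 to 775 from WT at 263 to 267, while Tbx21, Stat4, Il18r1 and Il18rap overlapped between the groups.

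Genes around the programme were read as 6 lists, beginning with the ligands that feed it. The shares to set beside the count-table calls of each list in KO over WT are those over all genes tested. These were 12.9% in either direction, 9.41% higher and 3.46% lower. Of 9 listed ligands and decoys 6 passed the filter on low counts in the count table, and 4 (3 ligands and the decoy Il18bp) rose in KO with 0 lower by edgeR (0 at an unadjusted p under 0.05 and 0 by DESeq2), with a median log2 change of 2.12. Il12a, Il12b and Il23a, which encode the subunits of interleukin-12 and interleukin-23, did not pass that filter, and Ebi3 and Il33 were not called (log2 change 0.21 and 1.08, adjusted p = 0.486 and 0.443). Il18, the ligand of the receptor above, had 36.4 and 38.8 CPM in KO and 3.81 and 4.10 CPM in WT, a log2 change of 3.25 ± 0.19 (adjusted p = 0.000180). Il18bp, its soluble decoy, had 44.1 and 42.5 CPM in KO and 18.6 and 14.3 CPM in WT (1.40 ± 0.18, adjusted p = 0.00505), and Il15, a growth factor of NK and memory T cells, changed by 3.57 ± 0.38 (adjusted p = 0.00208). The fourth, Il27, had a mean under 1 CPM and was named after its values were seen (2.84 ± 0.62, adjusted p = 0.0343, called in 0 of 4 fits that left out 1 library). From the normalized values 0 of 4 tested ligands were called by limma (2 at an unadjusted p under 0.05 and 0 by edgeR).

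Of 25 genes that T-bet and Eomes are known to act on or that type 1 cells secrete, 9 rose and 2 fell in KO of the count table, with a median log2 change of 0.83. Zeb2, a factor that acts with T-bet in terminal effector cells, had 74.2 and 89.6 CPM in KO and 4.69 and 3.42 CPM in WT (4.33 ± 0.36, adjusted p = 0.000802). Cxcr6, a chemokine receptor of tissue-homing type 1 cells, had 89.9 and 94.6 CPM in KO and 17.9 and 26.4 CPM in WT (2.06 ± 0.18, adjusted p = 0.000940). Both calls held with any 1 library left out. Gzmk, a granzyme of memory cells, changed by 2.85 ± 0.45 (adjusted p = 0.0105), which was not called when any 1 library was left out (adjusted p up to 0.0740), and Il2, the T cell growth factor, changed by 3.22 ± 0.38 (adjusted p = 0.00337). Il10, a suppressive cytokine, had 10.9 and 10.5 CPM in KO and 29.7 and 38.6 CPM in WT (-1.67 ± 0.22, adjusted p = 0.00500), and Lta, which encodes lymphotoxin, changed by -0.59 ± 0.14 (adjusted p = 0.0470); these calls held in 2 and 0 of 4 fits that left out 1 library (adjusted p up to 0.0614 and 0.247). From the normalized values Id2 alone of 24 tested genes of this list rose (1 gene), at 0.83 ± 0.11 on the log2 scale (limma, adjusted p = 0.0486), and it had no call there with any 1 library left out (highest adjusted p 0.888).

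Of 16 relay genes downstream of both receptors 1 rose and 4 fell in KO, with a median log2 change of -0.17. Irak4, a kinase of the interleukin-18 pathway, changed by 0.44 ± 0.08 (adjusted p = 0.0171), while Traf6, the ubiquitin ligase after it, changed by -0.65 ± 0.11 (0.0125). Gadd45g, an activator of p38 in type 1 cells, changed by -0.87 ± 0.17 (0.0241), and the feedback inhibitors Socs3 and Socs1 by -0.39 ± 0.08 and -0.33 ± 0.08 (0.0277 and 0.0447). Leaving out 1 library ended each of these 5 calls in at least 3 of 4 fits (highest adjusted p 0.136, 0.107, 0.176, 0.185 and 0.322).

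Of 17 genes of the interferon-gamma receptor and response 3 rose and 2 fell in KO, with a median log2 change of -0.25. Cxcl9, a chemokine induced by interferon-gamma, changed by 4.32 ± 0.40 (adjusted p = 0.00113), Ciita, the activator of MHC class II genes, by 3.15 ± 0.47 (0.00880) and Irf8, a factor of myeloid and B cells, by 1.10 ± 0.17 (0.00948). Irf1, an interferon-induced transcription factor, and Gbp3, an interferon-induced GTPase, changed by -0.39 ± 0.07 and -0.85 ± 0.17 (0.0174 and 0.0251). The calls of Ciita, Irf8, Irf1 and Gbp3 were each lost in 3 or 4 of the 4 fits that left out 1 library (highest adjusted p 0.0647, 0.0776, 0.149 and 0.180). By normalized values 5 of the genes named from these lists had the opposite sign without a call, Irak4 at -0.10, Traf6 at 0.02, Irf8 at -0.09, Ciita at -0.82 and Il10 at 0.53. The same 2 KO libraries had 2406 and 2865 CPM of myeloid markers in all, against 361 and 399 CPM in WT, and the part of those markers in the levels of Il18, Il15, Zeb2, Cxcl9 and Ciita was not tested.

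Of 14 measured cofactors and Th1-promoting factors 1 rose, Hlx, a homeobox partner of T-bet, at 3.04 ± 0.47 (adjusted p = 0.00999), and 2 fell, Irf4 at -0.69 ± 0.07 (0.00193) and Hopx at -0.39 ± 0.10 (0.0495), with a list median of -0.18. Of these, the call of Irf4 held with any 1 library left out, and those of Hlx and Hopx were lost in 3 and 4 of 4 fits (highest adjusted p 0.0716 and 0.313). The last list is to be read beside the 12.9% of all genes tested that were called in either direction. Of 18 tested factors that oppose or restrain the programme 0 rose by edgeR (1 at an unadjusted p under 0.05 and 1 by DESeq2) and 2 fell, Foxp3 at -0.38 ± 0.08 (adjusted p = 0.0254) and Ikzf3, which encodes Aiolos, at -0.34 ± 0.08 (0.0455). Neither was called when any 1 library was left out (adjusted p up to 0.185 and 0.246). Gata3 and Bcl6, the master factors of the Th2 and follicular fates, had log2 changes of -0.22 and 0.54 (adjusted p = 0.127 and 0.0684) and were looked up after the values were seen.

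**Figure D4:**
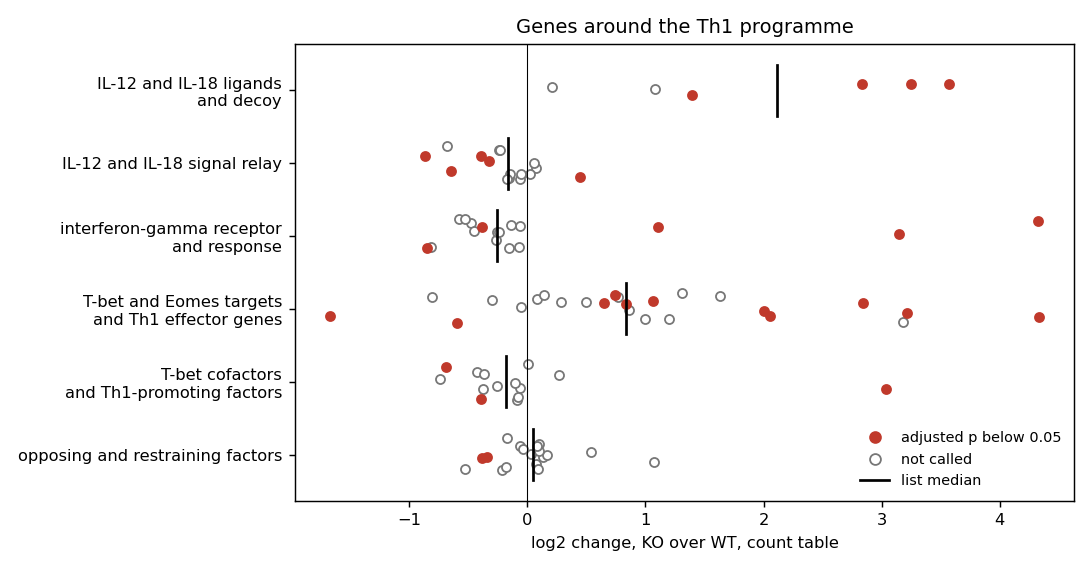
Log2 change in KO over WT of the count table (horizontal axis) for each tested gene of 6 lists around the Th1 programme; filled points have an adjusted p below 0.05 and black bars are list medians. Medians of the ligand list and the target list lie at 2.12 and 0.83, and those of the other 4 lists between -0.25 and 0.05.

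Markers of other cell types were read beside these genes, because NK cells, CD8 T cells, B cells and myeloid cells can also express some of them. Their count-table calls in KO over WT stand beside 9.41% higher and 3.46% lower over all genes tested. The 13 markers of NK cells and ILC1 in the count table summed to 283 and 276 CPM in KO, 238 and 286 CPM in KO EAE, and 111 and 110 CPM in WT, with Klra8 and Klra4 at 0 reads in every library. Of the 11 tested, 6 rose and 1 fell in KO. The 1 that fell is not among those whose levels are given below. Ncr1, the NK receptor that defines the lineage, had 8.73 and 6.34 CPM in KO and 3.06 and 1.957 CPM in WT, without a call (adjusted p = 0.0551). Fcer1g, the most abundant in KO and a gene that myeloid cells also express, had 67.1 and 68.4 CPM in KO and 11.1 and 11.1 CPM in WT. Cd7 had 49.5 and 55.3 CPM in KO and 45.7 and 45.9 CPM in WT. The 3 CD8 markers summed to 34.0 and 38.5 CPM in KO and 32.8 and 30.2 CPM in WT (1 of 3 rose). The 11 B cell markers summed to 89.4 and 151 CPM in KO and 59.0 and 49.4 CPM in WT. Of these, 1 of 11 rose, near the share over all genes tested. Of 22 myeloid markers 18 rose. Of 2 measured markers of gamma-delta and NKT cells 1 rose, Zbtb16, and the pair summed to 14.9 and 17.0 CPM in KO and 3.19 and 3.73 CPM in WT. Of 7 erythroid markers 3 passed the filter and all 3 rose, the 7 summing to 16.6 and 36.3 CPM in KO and 3.44 and 2.26 CPM in WT, with the 4 globin genes at 0 reads. The part of these cells in the levels of the Th1 genes was not tested.

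The regulatory T cell markers summed to 1834 and 1906 CPM in KO and 1977 and 1835 CPM in KO EAE. In WT they summed to 2434 and 2351 CPM. In KO 4 of 10 fell, Foxp3, Il2ra, Ctla4 and Ikzf2, where 3.46% of all genes tested were called lower. The T cell receptor gene Cd3e stood at 141 and 150 CPM in KO and 149 and 146 CPM in WT. By normalized values the regulatory T cell markers summed to 134900 and 132900 in KO and 143900 and 139900 in WT. Of those 10 markers 0 were called there by limma (1 higher and 3 lower at an unadjusted p under 0.05, and 0 by edgeR on recovered reads). Foxp3 had a log2 change of -0.07 ± 0.14 there (limma, adjusted p = 0.856). In the normalized table NK markers summed to 9605 and 9711 in KO and 1916 and 2335 in WT. Of 9 tested, 3 rose (Fcer1g, Klrd1 and Cd7), and the calls of Klrd1 and Cd7 were lost whenever 1 library was left out. The part of such cells in the levels of the Th1 genes was not tested there either. Myeloid markers of that table summed to 42300 and 36210 in KO and 10650 and 18650 in WT, with 2 of 20 called higher by limma. Over all genes tested there, limma called 0.14% higher and 0.0412% lower.

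**Figure D5:**
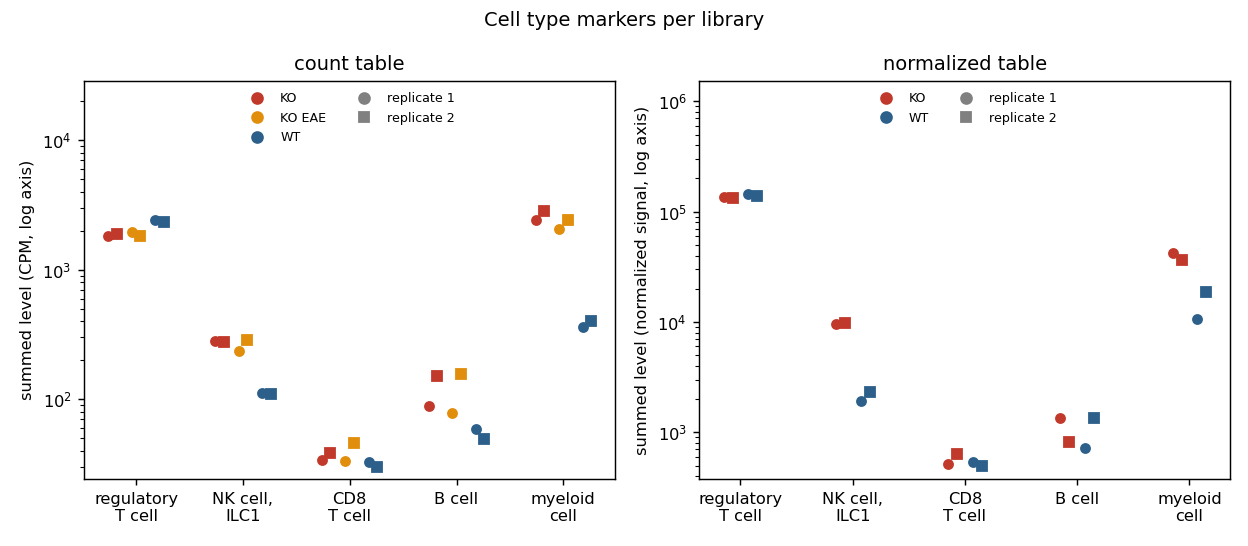
Summed level of the measured markers of 5 cell types per library (log axes) in the count table (left, CPM) and the normalized table (right, normalized signal). Myeloid markers stood at 2406 and 2865 CPM in KO and 361 and 399 CPM in WT of the count table, and NK markers were higher in KO in both tables.

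The genes whose levels ran most like those of the 3 leading members over the 6 libraries of the count table were ranked by Pearson correlation of log2(CPM + 1) among 10534 genes, as a description of libraries that fall into 3 groups. For Tbx21 they were Arhgap23 (r = 0.998), then Cebpd, Uap1l1, Themis2 and Sord (0.997 each). Themis2, for example, had 79.1 and 62.3 CPM in KO, 42.0 and 85.7 CPM in KO EAE, and 6.25 and 5.26 CPM in WT, with the same low KO EAE replicate 1. For Eomes they were AI607873 and Dtd2 (0.998), D6Wsu163e and Rasa4 (0.997) and C1ra (0.996). For Ifng they were Sorl1 (0.995), Itgb1 (0.993), Golm1 and Srsf9 (0.990) and Mccc2 (0.989), and Sorl1 had 234 and 253 CPM in KO, 258 and 254 CPM in KO EAE, and 185 and 205 CPM in WT. No gene stood among the 5 nearest of more than 1 of these members.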

How the data were processed

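Per the labels' protocols, regulatory T cells were sorted, and RNA was extracted with a column kit and sequenced on a NextSeq500. HISAT2, HTSeq, DESeq2 and mm10 are named per the submitters' processing notes; versions, annotation and strand setting were not given in the sources used here. The authors deposited whole-number read counts per gene (6 libraries), a normalized signal per gene (4 libraries), and their own comparison, with a mean signal, log2 fold changes, a test score and p-values, per the file headers. Dividing each normalized column by its smallest step gave whole reads for 100% of values above 0 (tolerance 0.02 reads), and edgeR on those reads called 12 genes. Rows naming no gene were left out (25 and 27; at most 0.217% and 0.284% of a library).

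Counts were tested with edgeR 4.0.16 in R 4.3.3 (filterByExpr with minimum count 10 and total 15, TMM, glmQLFit, glmQLFTest, no block) in 1 fit of all 6 libraries with 3 residual degrees of freedom. The normalized signal was tested with limma 3.58.1 on log2(signal + 1) over genes with a mean of at least 10. Benjamini-Hochberg adjustment ran over all genes tested, with a threshold of 0.05. SEs of edgeR changes are approximate, from the change and its F value. DESeq2 1.42.0 was an alternative. Scripts were tested on simulated data with 200 changed genes. Replicates differed by more than sampling noise (chi-square per degree of freedom 18.8 to 36.5), and floors cover counting error only. Positions and exon lengths are from GENCODE M21 (mm10), matched by symbol.

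All 8 members are named. Genes of the lists are named if called in KO over WT with a mean of at least 1 CPM, up to the 4 largest changes in each direction. The members, lists and tests were chosen with earlier results of these data known, so none is independent evidence. Of 185 list entries, 176 were in the count table; Zfp683, Trac and 7 genes of the gamma-delta list were not matched. Results for some genes are not reported here.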

Additional observations from a re-analysis of the deposited data

How the results depend on the processing

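Leaving out 1 library also leaves fewer degrees of freedom, and which of these ends a call was not tested. For KO over WT by counts, 1873 genes and 5 members were called, against 3121 genes in a fit of those 4 libraries alone, and 846 to 917 genes and 1 to 2 members with 1 library left out. In KO EAE over KO 2 genes were called, against 167 by DESeq2, 0 with the replicate number as a block, 0 in a fit of those 4 libraries alone, and 0 to 313 with 1 library left out. In KO EAE over WT 1362 genes and 5 members were called, against 2213 genes by DESeq2, 782 genes and 2 members in a fit of the 4 libraries alone, and 603 to 3762 genes and 2 to 5 members with 1 library left out. By normalized values, 22 genes were called, against 9 with a pseudocount of 0.5, 50 with one of 10, 1 with no filter on low values, 90 with the replicate number as a block, 12 by edgeR on recovered reads (chosen after seeing the data), and 0 to 71 with 1 library left out; no setting called a member there. For KO over WT by counts, the fit of the KO and WT libraries alone called the same 5 members as the main fit. The causes of the differences between settings were not tested.

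Deviations of same-numbered libraries in the count table correlated at 0.189 between KO and KO EAE, 0.0619 between KO and WT and -0.263 between KO EAE and WT. In the normalized table the value was 0.0033 between KO and WT. The labels do not say whether same-numbered libraries shared an animal, litter or day, and these correlations cannot tell. The replicate block changed the call of no member, with 1669 genes called in KO over WT and 1301 in KO EAE over WT by counts. A crossed block for KO EAE over WT, chosen after seeing the data, called 785 genes and 3 members.

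Changes that turned sign all lay in KO EAE over KO or in the normalized values, where no member was called. They included members called in the other comparisons. In KO EAE over KO, Stat4 was 0.0003 in a fit of 4 libraries. With 1 library left out, that comparison gave Tbx21 -0.58 to 0.24, Eomes -0.34 to 0.16, Stat4 -0.105 to 0.0768, Il18r1 -0.27 to 0.15, Il18rap -0.77 to 0.41, Il12rb1 -0.17 to 0.37 and Il12rb2 -0.75 to 0.91. For KO over WT by normalized values Tbx21 ran from -0.0863 to 0.51 and Stat4 from -0.0882 to 0.09. By counts, the 5 called members kept their direction under every alternative that was run for them in KO over WT and KO EAE over WT.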
